A study of Homo sapiens with 11 samples.

Results

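The genes described here encode the subunits, activators and assembly factors of the proteasome. They are all genes whose symbol is PSMA to PSMG followed by a number, together with PSMF1, POMP, SHFM1 and NFE2L1. By this rule 50 genes were found among the 14458 listed for knockdown, and 46 of the same 50 were among the 11062 listed for overexpression, out of 15148 genes listed in either table. PSMB8, PSMB9, PSME2 and SHFM1 are listed for knockdown only. The series holds 11 RNA-seq libraries, in 4 groups, from the established myeloma cell line ARP1, a human line that secretes IgA kappa. Cells carrying shRNA against PHF19 (n = 3) were set against cells with a scramble control (n = 3). Cells infected with a lentivirus holding the PHF19 open reading frame in the PCDH plasmid (OE, n = 2) were set against cells infected with the empty PCDH vector (EV, n = 3). Virus was packaged in HEK293T cells, a human embryonic kidney line, and OE cells were sorted. Sorting of EV cells and delivery of the shRNA were not given in the sources used here. In shRNA and scramble samples the genotype tag repeats the overexpression wording, so groups follow the sample titles. The labels say neither whether replicates were separate cultures nor whether the shRNA libraries carry 1 hairpin, so p-values measure only the spread between these libraries, which may be technical. PHF19 belongs to Polycomb repressive complex 2, which methylates histone H3, as an accessory subunit, and the series title asks about its part in myeloma growth and drug resistance.

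The proteasome degrades proteins tagged with ubiquitin. Its 20S core is a barrel of alpha rings, which gate the entrance, and beta rings, which hold the proteolytic sites of PSMB5, PSMB6 and PSMB7. The 19S regulatory particle caps the barrel: the ATPases of its base unfold substrates and its lid removes ubiquitin. In immune cells PSMB8, PSMB9 and PSMB10 can replace PSMB5, PSMB6 and PSMB7 to form the immunoproteasome, which favours peptides for MHC class I. NFE2L1 is a transcription factor anchored in the endoplasmic reticulum that is released, processed and then activates proteasome genes when proteasome activity is short. Plasma cells and myeloma cells secrete large amounts of immunoglobulin, and inhibitors of PSMB5 such as bortezomib are used to treat myeloma.

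Values were taken as abundances of FPKM type, although no unit is named. FPKM values are normalised for gene length and library size, so comparisons of levels between genes rest on that reading. No read depth is known. The listed values summed to 501348 to 524966 in shRNA libraries, 470294 to 526068 in scramble libraries, 498485 and 502349 in OE libraries and 425155 to 426112 in EV libraries. PHF19 itself was at 75.2, 103 and 108 FPKM in shRNA libraries, against 113, 152 and 123 FPKM in scramble libraries, and limma, which adjusts p over all genes tested by Benjamini-Hochberg, gave an adjusted p of 0.147, or 0.0445 with the replicate number as a block. The groups did not overlap for PHF19, although only the blocked fit passed 0.05. PHF19 was at 227 and 213 FPKM in OE libraries, against 111, 119 and 115 FPKM in EV libraries (limma adjusted p = 0.0438), a call that was lost under 10 of 13 alternatives, with adjusted p-values up to 0.264. Summed plasma cell markers reached 1450 to 1870 FPKM in shRNA libraries, against 1820 to 2040 FPKM in scramble libraries, with 8 of 9 measured markers below 0 in log2 fold change, none past the limma threshold and 1 at an unadjusted p under 0.05. In the overexpression table they summed to 11500 and 4360 FPKM in OE libraries and 2540 to 3540 FPKM in EV libraries, and none passed limma or had an unadjusted p under 0.05. Most of that gap lay in IGJ, the joining chain, at 9837 and 2623 FPKM in OE libraries, against 1686, 1939 and 1700.1 FPKM in EV libraries, and MZB1 and TNFRSF17 are listed at 0 in EV 3 and EV 4. Markers of B cells, T cells, monocytes and erythroid cells each summed to under 5 FPKM in shRNA and scramble libraries, and CD3E, the T cell marker listed, was at 0 in shRNA 1. Erythroid markers summed to 3.09 and 12.9 FPKM in OE libraries, against 0 to 0.755 FPKM in EV libraries, and the monocyte marker LYZ was at 0.396 and 6.17 FPKM in OE libraries, against 0 to 0.0572 FPKM in EV libraries. The part of these markers in the results below was not tested, and in bulk RNA fewer cells of a type and less RNA per cell cannot be told apart.

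Among the members, single libraries stood apart. The shRNA 1 library had the lowest value of all 6 for 35 of the 50 members, and the lowest of its own group for 40, against 51.1% of all genes. Scramble 3 was the lowest of its group for 38 members, against 25.7% of all genes. In the overexpression table EV 5 was the lowest of all 5 libraries for 32 of the 41 members with no value of 0. It was the lowest of its own group for 35 of them, against 41.2% of all genes with no 0. Results that rest on shRNA 1 or EV 5 are therefore given with and without them.

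In scramble cells the core and the regulatory particle were abundant. PSMB4, a non-catalytic beta subunit, led with 816 ± 88.4 FPKM (SD, n = 3), followed by the alpha subunit PSMA7 at 358 ± 45.4 FPKM. The ubiquitin receptor PSMD4 (321 ± 25.5 FPKM) and the alpha subunit PSMA4 (312 ± 49.4 FPKM) came next and did not differ beyond their spread. At the low end were the germline alpha subunit PSMA8 at 3.08 ± 1.41 FPKM, PSMB9 at 5.14 ± 7.49 FPKM, the base chaperone PSMD5 at 8.40 ± 0.508 FPKM and the nuclear activator PSME4 at 11.6 ± 1.09 FPKM. NFE2L1 ranked 36 of the 50 with 60.5 ± 7.89 FPKM.

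After PHF19 shRNA most transcripts of the constitutive proteasome had lower means, while that of NFE2L1, the activator of these genes, was higher. The log2 fold change was below 0 for 41 of the 50 members, against 45.6% of the 10900 genes tested, all 50 members having passed the filter on low values. The median was -0.28 for the members and 0.03 for all genes, on the log2(FPKM + 1) scale. Two-sided limma adjusted over all genes called 2 members lower, PSMC1 and PSMD12, and 1 higher, NFE2L1. The same fit called 1.28% of all genes lower and 4.24% higher. At an unadjusted p under 0.05, 19 members were lower and 1 was higher, against 8.74% and 15.3% of all genes. With the replicate number as a block, 11 members were lower and NFE2L1 was higher, against 3.68% of all genes lower and 8.2% higher. Groups did not overlap for 22 members, every shRNA value being below every scramble value, against 13% of all genes, and for NFE2L1 in the other direction, against 18.9% of all genes. Without shRNA 1 the median was -0.21 and 38 of 50 members were below 0, against 41.8% of all genes, and PSMC1 and NFE2L1 were still called, against 1.17% of all genes lower and 4.54% higher.

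**Figure D1:**
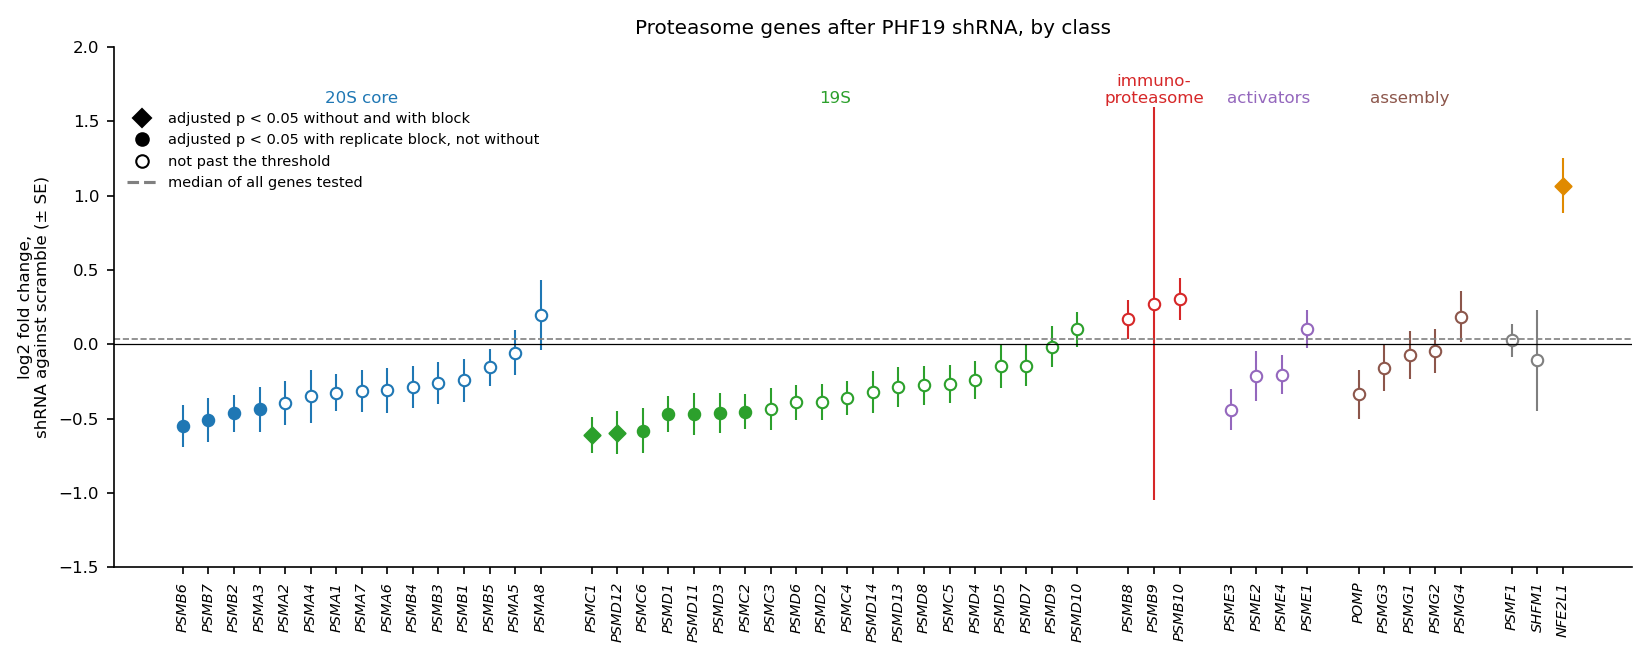
Log2 fold change of each proteasome gene, shRNA against scramble, with the standard error as bars; genes run along the x axis by class and the dashed line is the median of all genes tested. Below 0 lie 14 of the 15 genes of the 20S core and 19 of the 20 of the 19S particle, the 3 immunoproteasome subunits lie above it, and NFE2L1 stands highest at 1.07.

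NFE2L1 had 94.1, 141 and 155 FPKM in shRNA libraries, against 54.1, 58.0 and 69.3 FPKM in scramble libraries. Every shRNA library was above every scramble library, and shRNA 1 was the lowest of its group. The means were 130.0 ± 32.0 FPKM in shRNA cells and 60.5 ± 7.89 FPKM in scramble cells (SD, n = 3 each), a ratio of 2.15. The log2 fold change was 1.07 (SE 0.19), with an adjusted p of 0.0169 by limma and 0.00214 with the block. It was 1.28 without shRNA 1 (limma adjusted p = 0.000621), and it missed the threshold without scramble 1 (0.0853) or scramble 2 (0.0808).

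The 19S regulatory particle held both of the members called lower. Of its 20 genes counted here, PSMC1 to PSMC6 and the PSMD subunits, 19 had a log2 fold change below 0, with a median of -0.37. Groups did not overlap for 14 of them, and 7 passed with the block, against 13% and 3.68% of all genes lower. The 6 ATPases of the base, which thread substrates into the core, were all below 0 with groups that did not overlap, and their median was -0.45. All 3 non-ATPase base subunits and 5 of the 8 lid subunits likewise had groups that did not overlap. The 3 base chaperones PSMD5, PSMD9 and PSMD10, which help assemble the base and leave the finished particle, had a median of -0.02 and overlapping groups. Summed over the 20 genes, the abundance was 1668, 1951 and 1849 FPKM in shRNA libraries, against 2480, 2335 and 2173 FPKM in scramble libraries, so that the groups stood apart.

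PSMC1, a base ATPase, was at 85.7, 98.0 and 89.6 FPKM in shRNA libraries, against 152, 139.6 and 127 FPKM in scramble libraries. Its shRNA mean of 91.1 ± 6.29 FPKM was 0.653 of the scramble mean of 139.6 ± 12.4 FPKM (SD, n = 3 each). It fell by 0.61 on the log2 scale (SE 0.12, limma adjusted p = 0.0258, 0.0142 with the block). The call was lost without shRNA 3 (0.0794) and without scramble 1, 2 or 3 (0.103, 0.106 and 0.0511).

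PSMD12, a lid subunit, was at 14.1, 19.8 and 17.4 FPKM in shRNA libraries, against 24.2, 27.4 and 26.8 FPKM in scramble libraries. Its shRNA libraries lay below all scramble libraries, with shRNA 1 the lowest. PSMD12 fell by 0.60 on the log2 scale (SE 0.14, limma adjusted p = 0.0437, 0.0138 with the block), and leaving out any library other than shRNA 2 gave adjusted p-values from 0.0568 to 0.166. It also missed the threshold with no filter (0.0739) and without trended, robust variances (0.0589).

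A further 5 genes of the 19S particle fell in the blocked fit and missed the threshold in the same fit without the block. PSMC6 also passed unblocked under 3 of the other settings (limma adjusted p from 0.0379 to 0.0496), and PSMD1 with a filter at 5 (0.0481) or median-of-ratios scaling (0.0473). PSMC6, a base ATPase, had 35.1, 50.1 and 37.6 FPKM in shRNA libraries, against 58.7, 68.1 and 56.8 FPKM in scramble libraries, and a log2 fold change of -0.58 (limma adjusted p = 0.0541, 0.0135 with the block). PSMC2, another base ATPase, had 48.3, 57.2 and 49.8 FPKM in shRNA libraries, against 74.7, 72.1 and 66.6 FPKM in scramble libraries, and a log2 fold change of -0.45 (0.0554 and 0.0306). Both genes had their lowest value in shRNA 1. The scaffold PSMD1, to which ubiquitin receptors dock, had 43.7, 52.8 and 46.1 FPKM in shRNA libraries, against 70.3, 63.4 and 64.5 FPKM in scramble libraries, and a log2 fold change of -0.47 (0.0517 and 0.0338). The lid subunit PSMD11 had 35.0, 48.7 and 45.4 FPKM in shRNA libraries, against 62.2, 59.1 and 57.0 FPKM in scramble libraries, and a log2 fold change of -0.47 (0.0816 and 0.0470). The groups of PSMD1 and PSMD11 did not overlap, and PSMD11 was lowest in shRNA 1. The lid subunit PSMD3 had 159, 204 and 201 FPKM in shRNA libraries, against 268, 249.6 and 255 FPKM in scramble libraries, and a log2 fold change of -0.46 (0.0762 and 0.0470).

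The remaining members of the particle passed neither fit. PSMC3, PSMC4, PSMC5, PSMD2, PSMD4, PSMD6 and PSMD8 had groups that did not overlap, with log2 fold changes between -0.44 (PSMC3) and -0.24 (PSMD4). PSMD2 is the second large scaffold of the base and PSMD4 binds ubiquitin chains. PSMD14, the deubiquitinase of the lid, had a log2 fold change of -0.32, PSMD13 of -0.29 and PSMD7, the partner of PSMD14, of -0.14, each with overlapping groups. PSMD10 was the highest of the 20 with a log2 fold change of 0.10 (limma adjusted p = 0.638). SHFM1, which encodes the smallest lid subunit and was counted apart, had 305, 167 and 160.5 FPKM in shRNA libraries, against 309, 246 and 135 FPKM in scramble libraries. Its highest value in each group was in the replicate 1 library, and its log2 fold change was -0.11 (limma adjusted p = 0.873).

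In the 20S core, 14 of 15 genes had a log2 fold change below 0 and the median was -0.31. None passed limma without the block, with 6 lower at an unadjusted p under 0.05, against 8.74% of all genes. With the block 4 fell, against 3.68% of all genes, and 6 had groups that did not overlap, against 13%. The summed core abundance was 2301, 2796 and 2547 FPKM in shRNA libraries, against 3337, 3540 and 2762 FPKM in scramble libraries. Here shRNA 2 lay above scramble 3, so the groups overlapped. Without shRNA 1 the core median was -0.25 and that of the 19S particle -0.33.

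The 3 catalytic subunits of the core were spread over its range of fold changes. PSMB6, which carries the caspase-like site, had 113, 119 and 124 FPKM in shRNA libraries, against 199, 184 and 145 FPKM in scramble libraries. It had the largest log2 fold change of the core, -0.55 (SE 0.14, limma adjusted p = 0.0520, 0.0327 with the block). PSMB7, which carries the trypsin-like site, had 117, 149 and 139.6 FPKM in shRNA libraries, against 199, 215 and 164 FPKM in scramble libraries, and a log2 fold change of -0.51 (limma adjusted p = 0.0746, 0.0367 with the block). The groups of both genes did not overlap, and scramble 3 was the lowest scramble library for each. PSMB5, which carries the chymotrypsin-like site that bortezomib binds, had 83.7, 87.9 and 88.5 FPKM in shRNA libraries, against 108, 96.3 and 86.6 FPKM in scramble libraries. Its groups overlapped and its log2 fold change was -0.16 (SE 0.12, limma adjusted p = 0.470). The difference between PSMB5 and its neighbours was not tested.

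**Figure D2:**
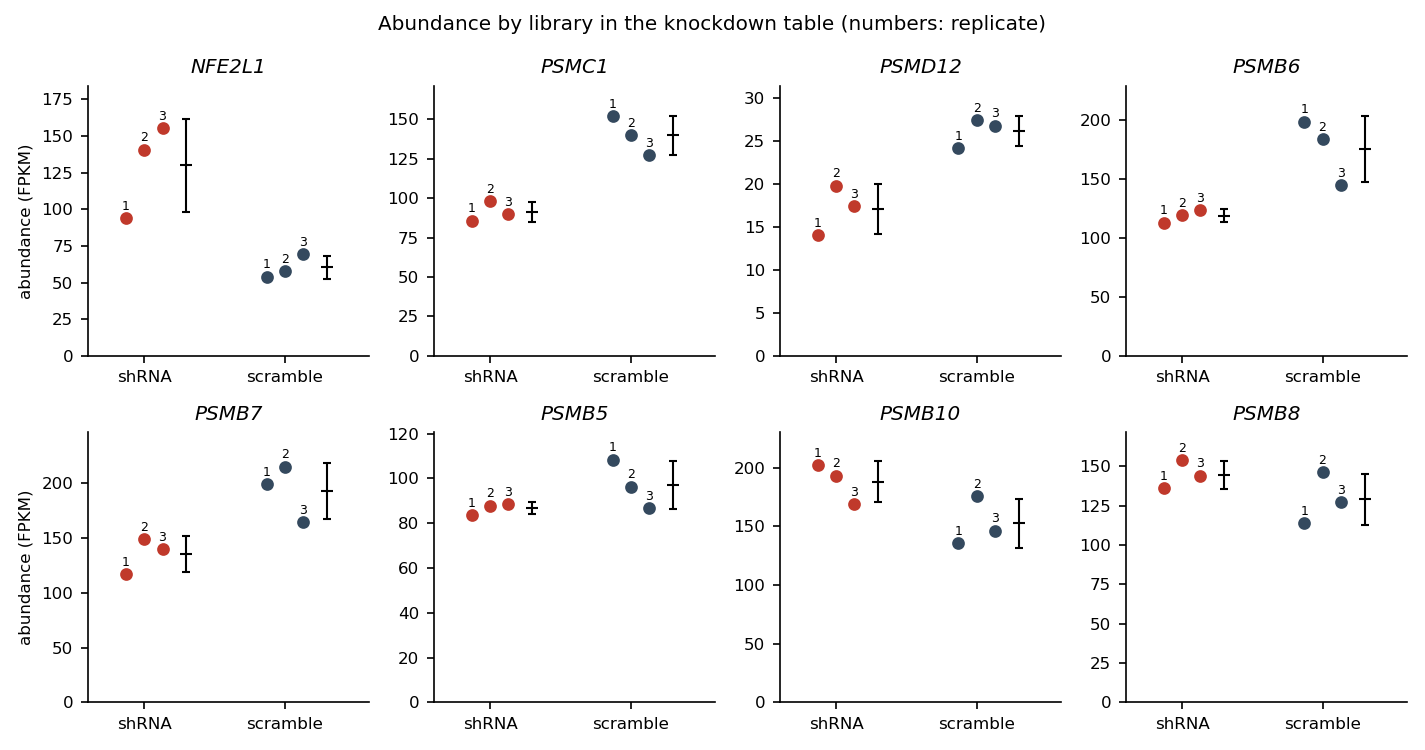
Abundance in FPKM (y axis) of 8 genes in each shRNA and scramble library, numbered by replicate, with the mean ± SD beside each group (n = 3 each). NFE2L1 is higher in every shRNA library, PSMC1, PSMD12, PSMB6 and PSMB7 are lower in every one, and PSMB5, PSMB10 and PSMB8 overlap between groups.

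The structural beta subunit PSMB2 had 37.7, 46.7 and 44.8 FPKM in shRNA libraries, against 63.7, 58.5 and 56.5 FPKM in scramble libraries, and a log2 fold change of -0.46 (limma adjusted p = 0.0593, 0.0390 with the block). The alpha subunit PSMA3 had 74.8, 98.0 and 81.2 FPKM in shRNA libraries, against 114, 133 and 98.6 FPKM in scramble libraries, and a log2 fold change of -0.44 (limma adjusted p = 0.114, 0.0374 with the block). Both fell in the blocked fit, and both were lowest in shRNA 1. PSMA1 and PSMA2 also had groups that did not overlap, with log2 fold changes of -0.33 and -0.40. PSMA4, PSMA5, PSMA6, PSMA7, PSMB1, PSMB3 and PSMB4 had overlapping groups and log2 fold changes from -0.35 (PSMA4) to -0.06 (PSMA5). PSMA8, which replaces PSMA7 in testis proteasomes, was low in all 6 libraries and had a log2 fold change of 0.20 (limma adjusted p = 0.640).

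The inducible subunits of the immunoproteasome had log2 fold changes above 0, none past the threshold or at an unadjusted p under 0.05 by limma. PSMB10 had 202, 193 and 169 FPKM in shRNA libraries, against 136, 176 and 146 FPKM in scramble libraries, and a log2 fold change of 0.30 (limma adjusted p = 0.215). PSMB8 had 136, 154 and 144 FPKM in shRNA libraries, against 114, 146 and 127 FPKM in scramble libraries, and a log2 fold change of 0.17 (limma adjusted p = 0.464). The groups of both overlapped. PSMB9 was near 1 FPKM in 4 libraries and high in the 2 replicate 1 libraries, with 17.1, 1.07 and 1.23 FPKM in shRNA libraries, against 13.8, 0.52 and 1.11 FPKM in scramble libraries. Its log2 fold change was 0.27 with an SE of 1.32, and -0.75 without shRNA 1. The summed abundance of the 3 genes was 355.6, 348 and 314 FPKM in shRNA libraries, against 263.6, 322.4 and 274.5 FPKM in scramble libraries, with overlapping groups.

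As a ratio within each library, the inducible subunit stood higher against its constitutive partner in shRNA cells for 2 of the 3 pairs. PSMB10 over PSMB7 was 1.73, 1.30 and 1.21 in shRNA libraries, against 0.683, 0.818 and 0.890 in scramble libraries. PSMB8 over PSMB5 was 1.63, 1.75 and 1.63 in shRNA libraries, against 1.05, 1.52 and 1.47 in scramble libraries. In both pairs each shRNA library lay above each scramble library, and with PSMB10 over PSMB7 the ratio was above 1 in shRNA libraries alone. PSMB9 over PSMB6 was 0.151, 0.00896 and 0.00993 in shRNA libraries, against 0.0694, 0.00283 and 0.00768 in scramble libraries, and the groups overlapped. These ratios are a description and carry no test, since the same ratio was not taken over other genes, and a ratio does not say which of its genes moved.

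**Figure D3:**
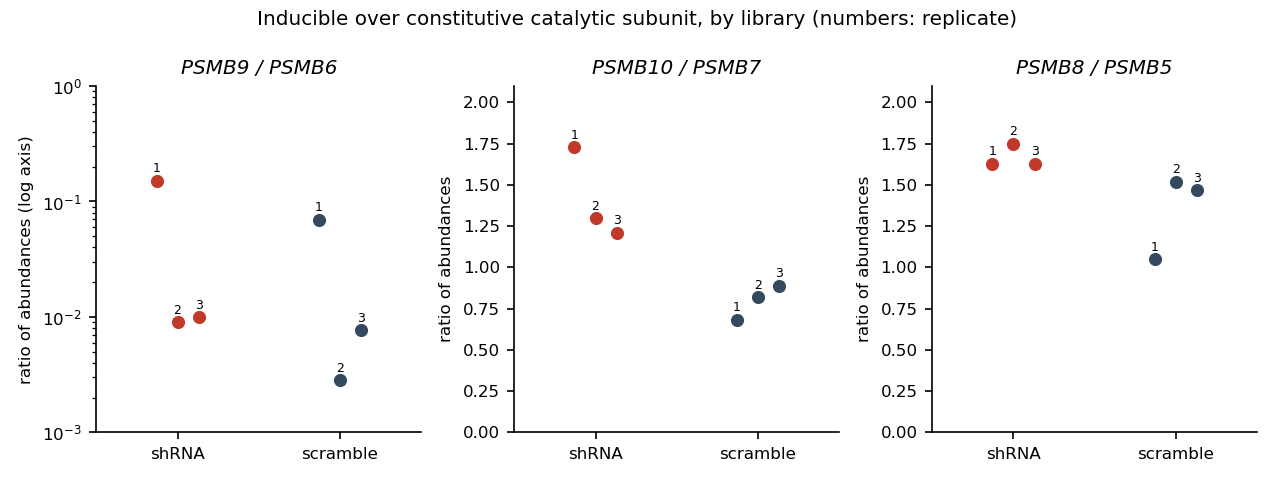
Ratio of the inducible to the constitutive catalytic subunit in each shRNA and scramble library (y axis, no unit, logarithmic for PSMB9 over PSMB6), with points numbered by replicate. The shRNA libraries lie above all scramble libraries for PSMB10 over PSMB7 and PSMB8 over PSMB5, and both replicate 1 libraries stand highest for PSMB9 over PSMB6.

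The activators open the gate of the core in place of the 19S particle. PSME3, which forms a nuclear cap, had 72.5, 92.3 and 92.1 FPKM in shRNA libraries, against 127, 105 and 117 FPKM in scramble libraries. The groups did not overlap, but the log2 fold change of -0.44 did not pass (SE 0.14, limma adjusted p = 0.0901, 0.0622 with the block). PSME4 also had groups that did not overlap and a log2 fold change of -0.20 (limma adjusted p = 0.373). PSME1 and PSME2, which together form the interferon-inducible cap, had log2 fold changes of 0.10 and -0.22 with overlapping groups.

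No assembly factor passed limma, with or without the block, and none had an unadjusted p under 0.05 without it. POMP, the chaperone that guides assembly of the beta rings, had 85.8, 125 and 101 FPKM in shRNA libraries, against 129, 152 and 113 FPKM in scramble libraries, and a log2 fold change of -0.34 (limma adjusted p = 0.245). Its groups overlapped. PSMG1, PSMG2, PSMG3 and PSMG4, the chaperones of the alpha ring, had log2 fold changes from -0.16 (PSMG3) to 0.19 (PSMG4), all with overlapping groups. PSMF1, which encodes a protein that inhibits the core, had 23.3, 23.3 and 24.1 FPKM in shRNA libraries, against 22.3, 22.9 and 24.1 FPKM in scramble libraries. Its log2 fold change was 0.03 (SE 0.11, limma adjusted p = 0.907).

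Member values shifted by library. Libraries of the same number were alike in their correlation across members. For numbers 1 and 3 they were not alike in how often each was the lowest of its group. Deviations from group means correlated across the 50 genes at 0.874, 0.761 and 0.694 for numbers 1, 2 and 3. Pairs with different numbers ranged from -0.83 to 0.65. PSMB9 weighs heavily here, at 2.32 in shRNA 1 and 2.03 in scramble 1 relative to the scramble mean on the log2 scale. It was at -1.25 to -0.70 in the other libraries, and no correlation was taken without it. By count, shRNA 1 was the lowest of its group for 40 members but scramble 1 for 7. Scramble 3 was the lowest for 38 but shRNA 3 for 6. Both number 2 libraries were seldom the lowest, shRNA 2 for 4 members and scramble 2 for 5. These are descriptions over genes that share libraries. The median member stood at -0.40, -0.17 and -0.30 on the log2 scale in shRNA 1, 2 and 3 relative to the scramble mean, and at 0.07, 0.07 and -0.14 in scramble 1, 2 and 3. The scramble 3 library thus lay close to shRNA 2.

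**Figure D4:**
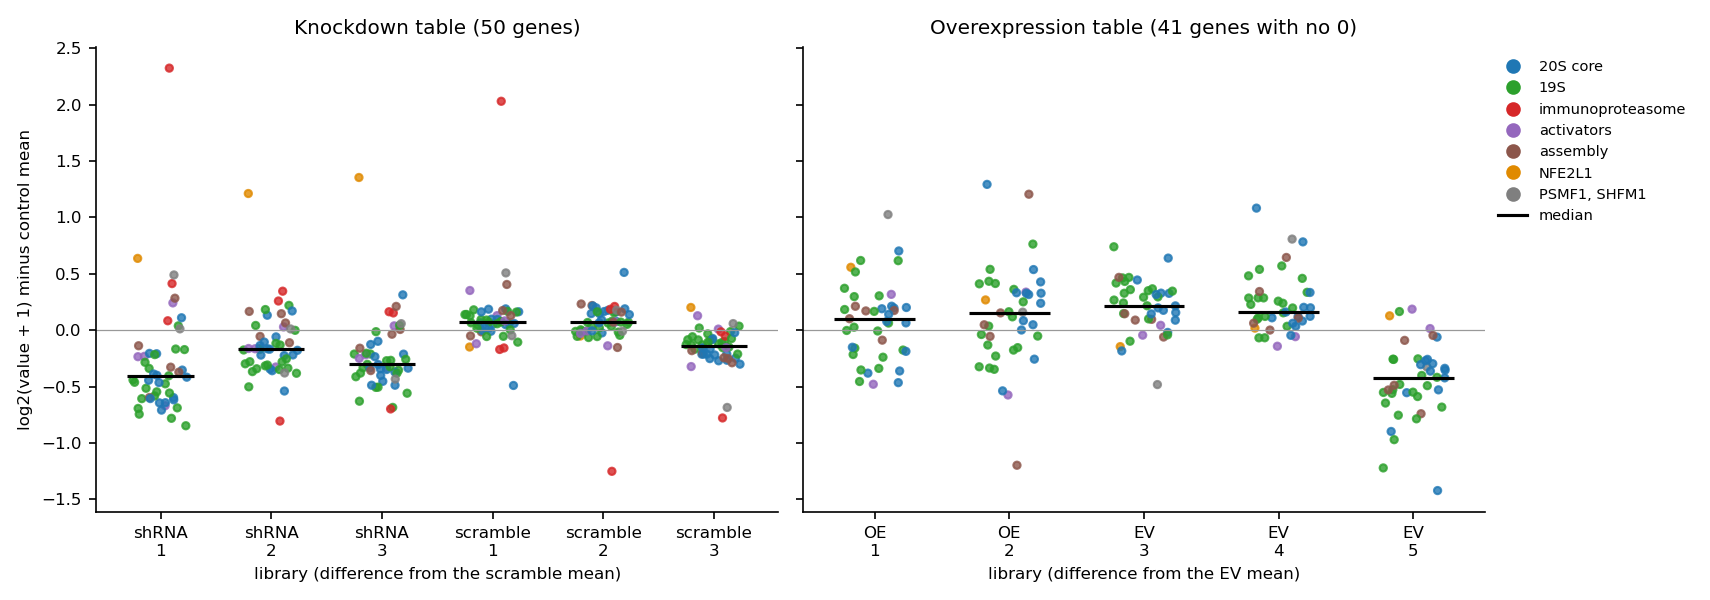
Difference of each proteasome gene from the mean of its control group on the log2(FPKM + 1) scale (y axis), for shRNA and scramble libraries on the left and OE and EV libraries on the right, coloured by class, with the median as a bar. The medians of the shRNA libraries are the lowest 3 on the left, and EV 5 has the lowest on the right at -0.42.

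The authors' deposited table gives a p-value per gene from a test that is not described there. In it 42 of the 50 members had p under 0.05 for shRNA against scramble, against 61.2% of all genes listed. For OE against EV the authors' deposited table has 4 of 46 members, against 12.9% of all genes listed.

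NFE2L1 is known to bind the antioxidant response element in promoters, so the members' promoter windows were searched for it. The windows span 250 bases before to 50 after the start site, from RefSeq on GRCh38.p14, and 44 of the 50 members were matched by symbol. Its core letters, TGACNNNGC on either strand in any window of a gene, occurred in 16 of the 44 members, 36.4%, against 16.1% of all genes in the table and 19.8% of genes tested for knockdown. By class these letters occurred in 2 of 11 core genes (18.2%) and 7 of 19 genes of the 19S particle (36.8%). They also occurred in 1 of 3 immunoproteasome genes, 3 of 4 activators and 2 of 4 assembly factors. CCAAT on either strand, which NF-Y binds, occurred in 21 of the 44, 47.7%, against 39.7% of all genes and 43.6% of those tested. No match to one motif overlapped a match to the other in the windows printed, and a match describes the letters only. The 3 genes called without the block are shown with PSMD3, a blocked call that holds both motifs. Capitals mark matches.
NFE2L1, chr17:48048109-48048408, plus strand, the first of its 2 windows: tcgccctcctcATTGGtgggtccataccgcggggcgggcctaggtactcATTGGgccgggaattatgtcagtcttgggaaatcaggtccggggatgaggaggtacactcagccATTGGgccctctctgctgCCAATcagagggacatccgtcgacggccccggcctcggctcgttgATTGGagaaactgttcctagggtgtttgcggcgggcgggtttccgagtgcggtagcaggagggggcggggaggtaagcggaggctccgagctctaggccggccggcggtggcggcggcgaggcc
PSMC1, chr14:90256303-90256602, plus strand: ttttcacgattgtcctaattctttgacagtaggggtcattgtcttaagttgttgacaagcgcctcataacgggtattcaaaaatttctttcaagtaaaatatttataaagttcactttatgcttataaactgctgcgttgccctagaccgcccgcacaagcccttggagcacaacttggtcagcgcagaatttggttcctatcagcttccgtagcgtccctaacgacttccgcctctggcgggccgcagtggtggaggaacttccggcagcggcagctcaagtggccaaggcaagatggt
PSMD12, chr17:67366528-67366827, minus strand: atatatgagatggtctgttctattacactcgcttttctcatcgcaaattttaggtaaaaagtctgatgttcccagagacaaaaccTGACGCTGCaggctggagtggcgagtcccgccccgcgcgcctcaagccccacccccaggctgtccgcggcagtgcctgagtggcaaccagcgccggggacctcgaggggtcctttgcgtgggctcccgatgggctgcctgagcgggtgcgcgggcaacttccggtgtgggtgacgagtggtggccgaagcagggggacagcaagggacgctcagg
PSMD3, chr17:39980557-39980856, plus strand: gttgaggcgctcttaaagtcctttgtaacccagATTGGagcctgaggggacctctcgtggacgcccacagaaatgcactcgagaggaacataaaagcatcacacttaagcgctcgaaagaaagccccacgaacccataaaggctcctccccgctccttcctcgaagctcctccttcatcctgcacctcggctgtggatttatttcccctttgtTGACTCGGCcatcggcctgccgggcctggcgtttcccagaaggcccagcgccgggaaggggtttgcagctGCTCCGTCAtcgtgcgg
The NFE2L1 window held 5 matches to CCAAT and none to the response element. PSMC1 held neither. PSMD12 held TGACGCTGC, 165 bases before the start site, and PSMD3 held TGACTCGGC, 37 bases before it, and the reverse complement GCTCCGTCA, 33 bases after it.

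Among genes that work with the proteasome, none of 10 proteasome-bound partners and 6 shuttle receptors passed limma with or without the block. Without it 2 partners were lower at an unadjusted p under 0.05, against 8.74% of all genes. ADRM1, a ubiquitin receptor on the base, had 168, 185 and 188 FPKM in shRNA libraries, against 245, 244 and 205 FPKM in scramble libraries, without overlap, and a log2 fold change of -0.36 (limma adjusted p = 0.125). UCHL5 and USP14, the deubiquitinases bound to the particle, had log2 fold changes of -0.33 and -0.26, also without overlap.

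Of 13 genes of NFE2L1 processing and partnership, none passed limma without the block. At an unadjusted p under 0.05, 2 were lower and 1 was higher, against 8.74% and 15.3% of all genes. With the block 1 was called lower and 1 higher, against 3.68% and 8.2% of all genes. UFD1L, a cofactor of the extracting ATPase VCP, had a log2 fold change of -0.40 (limma adjusted p = 0.0369 with the block), and MAFG, a small MAF partner of NFE2L1 on DNA, one of 0.41 (0.0384 with the block). VCP itself had 94.0, 87.5 and 82.8 FPKM in shRNA libraries, against 114, 102 and 109 FPKM in scramble libraries, without overlap (limma adjusted p = 0.160). NFE2L2, the relative of NFE2L1, had a log2 fold change of 0.20 (limma adjusted p = 0.489).

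Of 11 interferon and class I peptide loading genes, 9 had a log2 fold change above 0 and the median was 0.32. HLA-B, which presents peptides at the cell surface, had 25.9, 26.1 and 24.8 FPKM in shRNA libraries, against 18.0, 15.0 and 14.4 FPKM in scramble libraries, and rose by 0.67 on the log2 scale (limma adjusted p = 0.0222). It was the 1 gene of the 11 called without the block, against 4.24% of all genes called higher. With the block 4 of the 11 were called higher, against 8.2% of all genes. Among these were HLA-C and ERAP1, which trims peptides (limma adjusted p = 0.0281 and 0.0266). HLA genes share reads with close copies, so their values are uncertain. TAPBP, which loads peptides, had a log2 fold change of -0.60 at values of at most 2.69 FPKM (limma adjusted p = 0.0962).

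After PHF19 overexpression the direction of the proteasome genes turned on 1 control library, EV 5. Of the 46 members listed, 44 passed the filter, and 13 of these had a log2 fold change below 0, against 40.1% of the genes tested. The median was 0.15, against 0.09 for the 10279 genes tested. Limma called 1 member, PSME3, higher, against 0.613% of all genes higher and 0.302% lower. At an unadjusted p under 0.05, 4 members were higher and 1 was lower, against 7.88% and 3.65% of all genes. PSME3 was at 74.6 and 74.0 FPKM in OE libraries and is listed at 0 in all 3 EV libraries. It was well above 0 in all shRNA and scramble libraries, so no fold is given. PSMD8 is listed at 0 in all 5 libraries, PSMB10 in all but OE 2 (145 FPKM), and PSMA2 and PSMA6 in EV 3.

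Without the members listed at 0 in any library, 41 remained. No member and none of 8665 genes was called by limma fitted to genes above 0 in every library. In that fit 4 of the 41 were higher and 1 was lower at an unadjusted p under 0.05, and the matching share of all genes was not taken. The median of the 41 was 0.12, against 0.07 for genes with no 0. OE values lay above all EV values for 11 of the 41 and below them for 1, PSME4, against 23.3% and 12% of genes with no 0. Without EV 5 the median of the 41 was -0.09, with 25 below 0, against 43.2% of the genes tested. None of the 41 was called without EV 5. Of the 44 tested, PSME3 was then called higher by limma adjusted p, against 2.56% of all genes higher and 0.914% lower. At an unadjusted p under 0.05, 9 of the 44 were lower and 5 higher. The shares of all genes at that unadjusted threshold were not taken, so these counts cannot be set against a background. The median of the 44 likewise was -0.09 without EV 5 and within 0.01 of 0 after quantile normalisation, which moved the median of all genes to -0.04.

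The members that changed after shRNA were not called after overexpression. NFE2L1 had 112 and 91.8 FPKM in OE libraries, against 68.7, 77.0 and 83.2 FPKM in EV libraries, without overlap, and a log2 fold change of 0.41 (limma adjusted p = 0.431). PSMC1 had 73.7 and 82.6 FPKM in OE libraries, against 119, 110.5 and 61.8 FPKM in EV libraries, and a log2 fold change of -0.26 (limma adjusted p = 0.796), or -0.55 without EV 5 (0.0805). PSMD12 had 37.3 and 39.6 FPKM in OE libraries, against 60.3, 46.6 and 29.2 FPKM in EV libraries, and a log2 fold change of -0.17 (limma adjusted p = 0.876). For PSMC1 and PSMD12 the OE values lay between EV 5 and the other two EV libraries.

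The 19S genes as a group had a median log2 fold change of 0.03 with EV 5 and -0.34 without it, 13 of 19 then being below 0. The 13 core genes with no 0 had medians of 0.15 and -0.02. EV 5 stood at a median of -0.55 for the 19S particle and -0.36 for the core relative to the EV mean on the log2 scale. PSMB5, the bortezomib target, had 62.7 and 67.5 FPKM in OE libraries, against 102, 93.3 and 55.8 FPKM in EV libraries (log2 fold change -0.31, limma adjusted p = 0.726, and 0.0690 without EV 5). PSMB6 had 153 and 166 FPKM in OE libraries, against 150.5, 145 and 108 FPKM in EV libraries (log2 fold change 0.26, limma adjusted p = 0.631). PSMB7 had 141 and 216 FPKM in OE libraries, against 171, 203 and 119.5 FPKM in EV libraries (log2 fold change 0.12, limma adjusted p = 0.914). The catalytic subunits therefore showed no common direction.

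Among members with no 0, the largest changes of each class did not pass. In the core PSMA5, an alpha subunit, had 90.8 and 80.9 FPKM in OE libraries, against 86.9, 96.1 and 20.05 FPKM in EV libraries (log2 fold change 0.62, limma adjusted p = 0.793, and -0.09 without EV 5). Only EV 5 stood apart for it. PSME4 had 10.9 and 10.1 FPKM in OE libraries, against 15.1, 14.0 and 17.9 FPKM in EV libraries (log2 fold change -0.53, limma adjusted p = 0.362). PSMG4 had 27.4 and 57.1 FPKM in OE libraries, against 23.1, 26.1 and 23.4 FPKM in EV libraries (log2 fold change 0.69, limma adjusted p = 0.520). PSMD9, a base chaperone, had 30.4 and 33.7 FPKM in OE libraries, against 18.9, 27.1 and 14.3 FPKM in EV libraries (log2 fold change 0.69, limma adjusted p = 0.475). Both OE libraries exceeded every EV library for both genes, but OE 1 only narrowly so for PSMG4. PSMF1 varied within both groups, at 45.5 and 24.5 FPKM in OE libraries, against 15.3, 39.0 and 17.2 FPKM in EV libraries (log2 fold change 0.59, limma adjusted p = 0.701). Of the partner lists, the sole call was PAAF1, a base chaperone that is listed at 0 in both OE libraries and at 22.2, 21.4 and 23.5 FPKM in EV libraries.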

How the data were processed

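The members and gene lists were chosen with earlier results of these data known. Libraries were prepared with a BGI kit, per the labels' protocols, and the submitters' processing notes name TopHat, without a version, and hg19. The authors deposited 2 tables of abundances, taken here as FPKM because the headers name no unit, and each also holds a p-value per gene, per the file headers. No counting error could be computed, since the read depth, the quantifier and the authors' filter were not given in the sources used here. Since the tables were normalised separately, each was tested within itself. Exact 0 values in the overexpression table can be failed estimates, so genes at 0 are given by library. A gene was tested if at least as many libraries as in the smaller group reached a value of 1. Testing was two-sided on log2(value + 1) in limma 3.58.1 (R 4.3.3), with a variance trend and robust estimates, and p-values were adjusted by Benjamini-Hochberg across every gene tested, at a threshold of 0.05. Fold changes are shRNA minus scramble and OE minus EV, and understate changes of low genes. The shRNA and scramble groups share the replicate numbers 1 to 3. After subtracting group means, libraries with equal numbers correlated at 0.341, 0.270 and 0.273 across genes, and other pairs at -0.277 to 0.0936. No label states a pairing by number, so the main fit has no block. The fit with the number as a block was run as an alternative and is given beside results it changes. Values are given for members past the threshold in either fit, the largest change of each class, NFE2L1, PSMF1, SHFM1 and the 3 catalytic pairs. Results of some genes outside the proteasome are not reported here. Other tables and plots used pandas 2.3.3, numpy 2.4.6 and matplotlib 3.10.9 in Python 3.11.15. Alternatives were other normalisations, filters, pseudocounts and variance models, genes above 0, the block and leaving out each library.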

Additional observations from a re-analysis of the deposited data

How the results depend on the processing

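The median of the members for shRNA against scramble stayed below 0 under all 14 alternatives, between -0.38 and -0.21, while the number of members called depended on the setting. Against 3 members called as reported, quantile normalisation, median-of-ratios scaling and a filter at 5 each called 5, the replicate block called 12, and leaving out single libraries called 0 to 4. With scramble 1 or scramble 2 left out no member was called by limma, and without shRNA 3 only NFE2L1 was. Without scramble 1 or scramble 2, 16 and 15 members were lower and 2 higher at an unadjusted p under 0.05. The matching shares of all genes were not taken. The count of all genes, 601 as reported, was 269 with no filter, 1295 with the replicate block and 54 to 629 with libraries left out. The block changed no call of the members beyond those given above. PHF19 passed with the block alone. PSMF1 turned to -0.01 under quantile normalisation (-0.0115) and median-of-ratios scaling (-0.0127), and SHFM1 ran from -0.45 to 0.146 with libraries left out. For OE against EV, 1 member was called as reported, 0 among genes above 0 in every library and 1 to 2 with libraries left out, the second being PSMB10 without OE 1. All genes called numbered 94 as reported, 36 with a filter at 5, 61 with a pseudocount of 0.1, 0 among genes above 0 in every library and 107 to 350 with libraries left out. PHF19 missed the threshold under 10 of 13 alternatives for OE against EV, with log2 fold changes of 0.75 to 0.97. PSMD12 ran from -0.454 to 0.0579 with libraries left out, turning without EV 3, PSMA5 from -0.0911 to 1.01, turning without EV 5, and PSMB7 from -0.188 to 0.428, with -0.0561 under quantile normalisation. No paired analysis was possible for OE against EV because the groups share no replicate number. Leaving out an OE library leaves 1 OE library, which is then assumed to vary like EV. The causes were not tested. The number of libraries limits every test, and counting error is unknown.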
